A study of Homo sapiens with 15 samples.

Results

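The genes described here are 10 members of the BCL2 family, taken by name: BCL2, BCL2L1, MCL1, BCL2A1, BAK1, BID, BIK, BCL2L11, BMF and HRK. The list was chosen with earlier results of these data known. Every probe set that carried 1 of these symbols and no other was included, which gave 33 of the 54613 probe sets tested. MCL1 had 6 of them, BCL2L11 7, HRK 5, BCL2 4, BCL2L1 4 and BID 3, while BAK1, BIK, BMF and BCL2A1 had 1 each. A probe set is a group of short probes on an Affymetrix array that reads the RNA of a gene. Where a gene had several, the one with the highest mean over all arrays is called its lead probe set.

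BCL2 family proteins decide whether the outer membrane of the mitochondrion stays intact. BCL2, BCL2L1 (BCL-XL), MCL1 and BCL2A1 (BFL-1) hold the membrane closed, BAK1 and its relative BAX open it and release cytochrome c, and the BH3-only proteins BID, BIK, BCL2L11 (BIM), BMF and HRK carry death signals to both groups. Cisplatin kills cells largely through this route.

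RNA was measured on 15 arrays in 5 groups of 3, stated in the design text to be biological triplicates. CP70 is a cisplatin-resistant derivative of the ovarian cancer line A2780, and the comparison of lines is thus one of a single resistant line with a single parental line. CP70 was given both drugs (decitabine at 0.1 µM over 48 h, joined for the last 24 h by PXD101 at 0.1 µM), decitabine alone (the same dose and time, renewed after 24 h) or PXD101 alone (0.1 µM over 48 h), and was compared with untreated CP70, which was itself compared with untreated A2780. RNA of the drug-treated cells was taken 96 h after drug removal, so the values describe cells some days past exposure. Decitabine is built into DNA, where it traps the enzymes that methylate CG dinucleotides, so that methylation is lost as DNA is copied. PXD101 (belinostat) inhibits histone deacetylases. The exposure to PXD101 was longer alone than in the combination, and that difference cannot be told apart from the presence of decitabine when those arms are compared.

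Because decitabine acts on CG dinucleotides, the bases before the transcription start are shown for BAK1, HRK and BCL2L11. BAK1 was higher after decitabine. The group mean of HRK was lower, but that difference rests on untreated CP70 replicates 1 and 3, as described below. BCL2L11 was the member whose window held the most CG. The sequences are RefSeq's (GRCh38.p14), 250 bases read 5′ to 3′ on the strand of the gene and ending just before its start, with each CG in capitals. CG reads the same on both strands. At least 1 CG stood in 93.9% of the 35114 promoter windows of the same table, with a median of 11. Of the 10 genes, 8 had an entry, and BIK and MCL1 were not among them. BAK1 lies on the minus strand at chr6:33580277-33580526 and its window held 5 CG, a number that 65.7% of all windows reached. HRK lies on the minus strand at chr12:116881442-116881691 with 22 CG, reached by 28.0% of windows. BCL2L11 lies on the plus strand at chr2:111120664-111120913 with 34 CG, reached by 6.8%. Methylation was not measured in these samples.
BAK1: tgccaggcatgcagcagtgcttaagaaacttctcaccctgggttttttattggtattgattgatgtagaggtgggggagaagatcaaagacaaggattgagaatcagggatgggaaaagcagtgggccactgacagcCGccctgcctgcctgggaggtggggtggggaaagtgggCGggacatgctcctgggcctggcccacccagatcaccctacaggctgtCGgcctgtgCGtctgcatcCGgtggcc
HRK: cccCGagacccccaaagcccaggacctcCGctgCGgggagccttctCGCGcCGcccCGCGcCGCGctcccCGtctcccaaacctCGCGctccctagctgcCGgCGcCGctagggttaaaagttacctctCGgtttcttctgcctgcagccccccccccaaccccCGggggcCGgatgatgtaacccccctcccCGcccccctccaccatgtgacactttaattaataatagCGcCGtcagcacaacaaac
BCL2L11: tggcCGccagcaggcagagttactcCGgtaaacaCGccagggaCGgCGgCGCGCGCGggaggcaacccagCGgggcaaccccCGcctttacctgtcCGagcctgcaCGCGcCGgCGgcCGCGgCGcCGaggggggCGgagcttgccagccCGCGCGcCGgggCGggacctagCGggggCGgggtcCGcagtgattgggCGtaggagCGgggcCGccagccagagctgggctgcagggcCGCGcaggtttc

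All levels are log2 values as deposited. Levels of different probe sets are not comparable, and in bulk samples fewer cells with a transcript cannot be told apart from less of it per cell. Array medians lay between 5.00 and 5.05. Untreated CP70 replicate 2 stood apart from its group: it correlated at 0.994 to 0.996 with the PXD101 arrays over all probe sets and at 0.984 to 0.986 with CP70 replicates 1 and 3, which correlated at 0.997 with each other. Results that rest on untreated CP70 are therefore given with and without these arrays. The ACTB 3′ control probe set exceeded the 5′ one, a sign of RNA quality, by 0.424 to 0.491 log2 with both drugs, 0.342 to 0.787 with decitabine, 0.384 to 0.509 with PXD101, 0.629 to 0.859 in untreated CP70 and 0.337 to 0.377 in A2780. The ACTB difference moved with every comparison of untreated CP70 except that with decitabine, where the groups overlapped. The same difference for GAPDH lay between -0.055 and 0.025 on every array but decitabine replicate 3, which had 0.187. The part of RNA quality in the results was not tested. Of 9 epithelial and ovarian markers, WT1 and CDH1 lay below the lower quartile of all values (3.74) in every group, and KRT18 averaged 7.71 to 10.60. The summed log2 level of the 9 was 58.5 to 59.1 with both drugs, 57.5 to 58.8 with decitabine, 51.6 to 52.2 with PXD101, 52.3 to 53.3 in untreated CP70 and 48.4 to 50.5 in A2780. KRT7, PAX8, WT1, MUC16 and CDH1 were called in neither decitabine arm over untreated CP70. With both drugs these 5 averaged below untreated CP70, and with decitabine alone KRT7 and PAX8 averaged above it. The median difference of the 9 was 0.10 with decitabine and -0.005 with both drugs. The keratins KRT8, KRT18 and KRT19 and the adhesion gene EPCAM were called higher in both decitabine arms than in untreated CP70. Of all genes, 7.04% were called with decitabine and 9.11% with both drugs. Without CP70 replicate 2 all 4 were still called in both arms, and without replicates 1 and 3 all but EPCAM were. Of 7 fibroblast and endothelial markers, 1 was higher and 2 lower in untreated CP70 than in A2780. DCN averaged 9.98 in untreated CP70 and 6.54 in A2780, COL1A2 averaged 8.62 and 11.10 in the same order and PDGFRB 6.45 and 6.84. The call of PDGFRB was lost without CP70 replicates 1 and 3. The summed level of the 7 was 46.2 to 46.6 in untreated CP70 and 45.3 to 45.8 in A2780, and CDH5 lay below the lower quartile in every group. The part of these markers in the results below was not tested.

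Across the family, the difference between the lines was the broadest. Decitabine, with or without PXD101, moved BIK, BAK1 and some MCL1 probe sets further from A2780. HRK moved back toward A2780, which rests on CP70 replicates 1 and 3. With decitabine alone, 1 BID probe set also moved back. A probe set was called where limma's Benjamini-Hochberg adjusted p over all 54613 probe sets was under 0.05. The test sets a difference of group means against 1 spread per probe set, estimated between these samples within all 5 groups. Because the members were chosen with earlier results of these data known, a count above the share of all probe sets is descriptive only. In untreated CP70 relative to A2780, 13 of the 33 probe sets were higher and 2 lower, 15 in all. Of all probe sets, 24.0% were called there, 11.5% higher and 12.5% lower. After decitabine, relative to untreated CP70, 4 were higher and 2 lower, where 5.56% of all probe sets were called, 2.91% higher and 2.65% lower. After PXD101 none was higher and 4, all of HRK, were lower, where 5.92% were called, 3.00% higher and 2.92% lower. After both drugs 6 were higher and 4 lower, where 7.02% were called, 3.95% higher and 3.07% lower. Both drugs relative to PXD101 alone gave 8 higher and 2 lower, where 7.28% were called, 3.94% higher and 3.34% lower. Decitabine relative to PXD101 gave 4 higher and 2 lower, where 5.99% were called, 2.95% higher and 3.04% lower. Both drugs relative to decitabine alone gave 0 calls with limma (0.00366% of all probe sets), and 4 of the 33 had an unadjusted p under 0.05. The contrasts that share an arm share its arrays. The rank product, the test that the design text names, called 2 of the 33 between the lines (4.45% of all probe sets), 4 with decitabine (1.42%), 4 with PXD101 (1.37%) and 5 with both drugs (1.81%). All were HRK probe sets except MCL1 214056_at, higher with both drugs. The median difference of the 33 was 0.21 in CP70 over A2780, 0.03 with decitabine over CP70, -0.11 with PXD101 over CP70 and 0.20 with both drugs over CP70, against -0.01 to 0.01 over all probe sets. By role, 3 of 15 anti-apoptotic probe sets, the 1 of BAK1 and 11 of 17 BH3-only probe sets were called between the lines, the last with 9 higher and 2 lower. The 3 anti-apoptotic calls came from 2 genes and the 11 BH3-only calls from 4, and probe sets of 1 gene are not independent. By lead probe set, 0 of 4 anti-apoptotic and 4 of 5 BH3-only genes were called, where 29.9% of all genes were. The 4 went in both directions, 3 higher and 1 lower, with the same counts without CP70 replicate 2. Most of these calls rest on CP70 replicates 1 and 3, as given for each gene below, and so does this contrast between the roles.

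**Figure D1:**
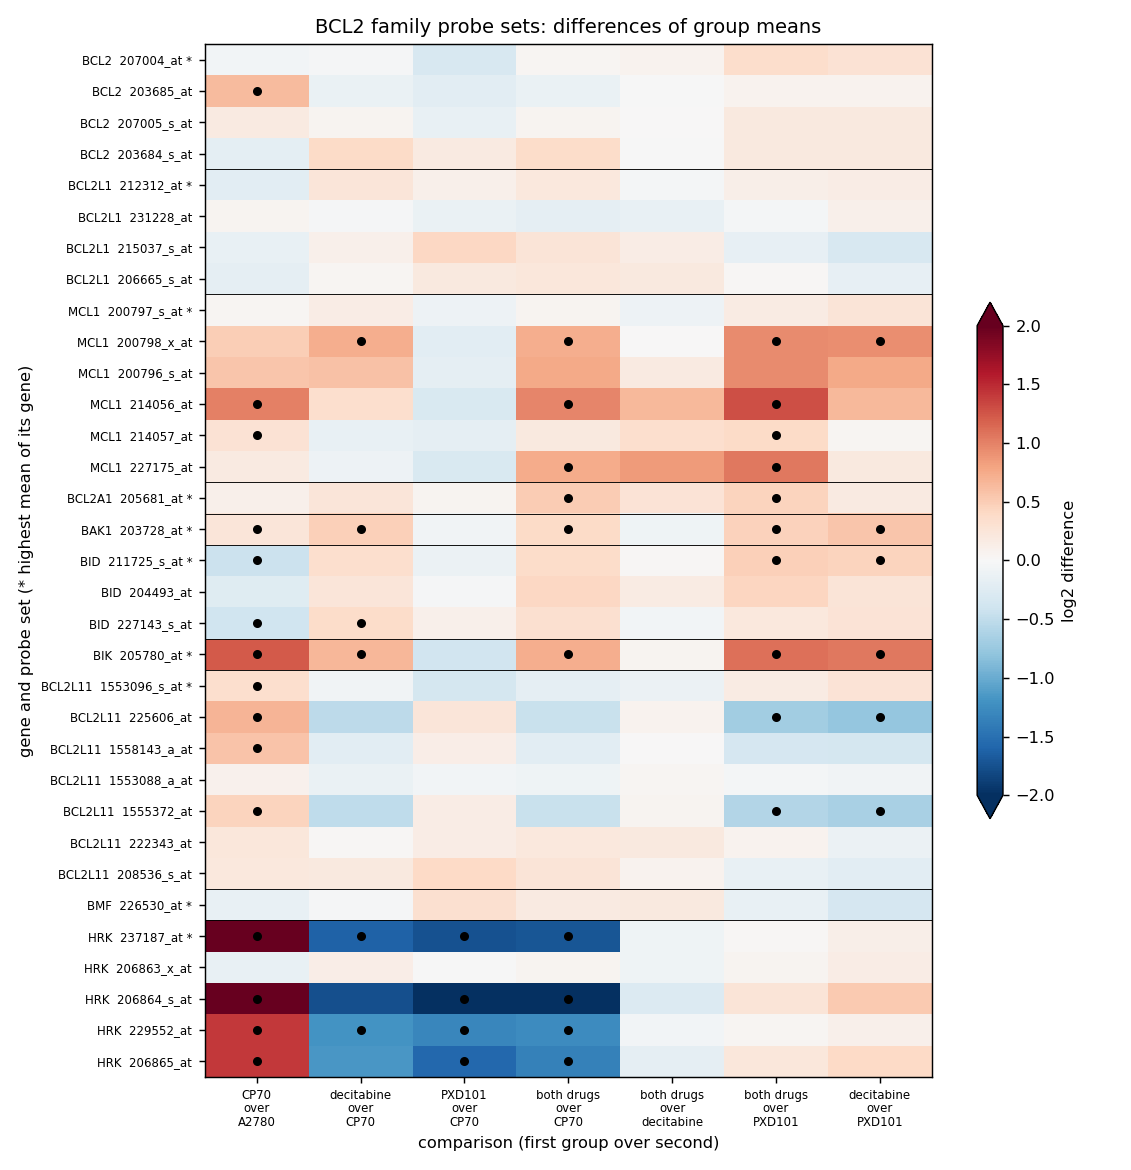
Differences of group means (log2, colour) of the 33 BCL2 family probe sets (vertical axis, grouped by gene, * marks the lead probe set) in 7 comparisons (horizontal axis, first group over second). Dots mark limma adjusted p under 0.05, and the colour scale ends at 2 log2 either way, with larger differences in the end colour; HRK carries the deepest colours wherever untreated CP70 is compared, and the column of both drugs over decitabine has no dot.

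Without CP70 replicate 2, 13 of the 15 calls between the lines were kept, and all 6, 4 and 10 calls of decitabine, PXD101 and both drugs over CP70. Without CP70 replicates 1 and 3, which leaves 1 untreated CP70 array whose spread is taken from the other groups, 3 of 15, 2 of 6, 0 of 4 and 1 of 10 were kept. The 3 kept between the lines were BIK, BCL2L11 (1558143_a_at) and MCL1 (214056_at). The 2 kept with decitabine were BIK and BAK1, and the 1 kept with both drugs was BIK.

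Among the anti-apoptotic genes, MCL1 had the largest differences, higher in untreated CP70 than in A2780 and higher again with decitabine or both drugs, but its probe sets disagreed. MCL1 sequesters BIM and BAK, and its protein and messenger are short-lived. The lead probe set (200797_s_at) had 11.21, 11.48 and 11.57 with both drugs, 11.60, 11.48 and 11.47 with decitabine, 11.15, 11.43 and 11.20 with PXD101, 11.40, 11.19 and 11.51 in untreated CP70 and 11.33, 11.32 and 11.30 in A2780. The decitabine arrays lay above those of PXD101 and of A2780, and every group overlapped with untreated CP70. Its differences, -0.11 to 0.26, passed no test over all probe sets (smallest adjusted p = 0.216, for decitabine over PXD101).

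A further MCL1 probe set (200798_x_at) behaved differently. It had 11.03, 11.49 and 11.62 with both drugs, 11.70, 11.41 and 10.99 with decitabine, 10.35, 10.59 and 10.38 with PXD101, 10.65, 10.41 and 10.88 in untreated CP70 and 10.23, 10.09 and 10.11 in A2780. All 6 arrays with decitabine lay above all others, and A2780 lay below all others. Both drugs exceeded untreated CP70 by 0.73 ± 0.18 (SE, limma adjusted p = 0.0206), and decitabine alone by 0.72 ± 0.18 (adjusted p = 0.0276). Without CP70 replicates 1 and 3 these differences were 0.97 and 0.96 with adjusted p = 0.0505 and 0.0575, and without replicate 2 they were 0.61 and 0.60 with adjusted p = 0.0339 and 0.0400. When each of the 6 arrays compared was left out in turn, both calls were kept in 3 of the 6 fits. Over PXD101 alone the differences were 0.94 with both drugs (adjusted p = 0.0045) and 0.92 with decitabine (adjusted p = 0.00593). The suffix x marks probe sets that may also bind other transcripts.

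MCL1 214056_at had 8.78, 9.12 and 8.76 with both drugs, 8.35, 8.38 and 8.00 with decitabine, 7.11, 8.03 and 7.66 with PXD101, 7.71, 8.00 and 8.00 in untreated CP70 and 7.19, 6.89 and 6.62 in A2780. The 3 arrays with both drugs lay above the other 12, and A2780 lay below all arrays but the lowest of PXD101. Untreated CP70 exceeded A2780 by 1.01 ± 0.20 (limma adjusted p = 0.00168), with 0.96 without CP70 replicate 2 and 1.10 without replicates 1 and 3, called in both. Both drugs exceeded untreated CP70 by 0.98 ± 0.20 (adjusted p = 0.00808), with 1.03 (adjusted p = 0.00452) and 0.89 (adjusted p = 0.147) under the same omissions, and PXD101 alone by 1.29 (adjusted p = 0.00119).

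MCL1 227175_at had 5.01, 5.29 and 4.89 with both drugs, 4.34, 4.58 and 3.73 with decitabine, 3.71, 4.03 and 4.31 with PXD101, 4.36, 4.29 and 4.29 in untreated CP70 and 4.16, 3.96 and 4.30 in A2780. The combination lay above every array of the other groups. The excess was 0.75 ± 0.19 over untreated CP70 (limma adjusted p = 0.028) and 1.05 ± 0.19 over PXD101 (adjusted p = 0.0035). Over decitabine it was 0.85 ± 0.19, which did not pass over all probe sets (adjusted p = 0.508). Over CP70 it was 0.74 without replicate 2 (adjusted p = 0.0270) and 0.77 without replicates 1 and 3 (adjusted p = 0.206), and the call was kept in 2 of 6 fits without 1 array. The remaining MCL1 probe sets were 214057_at, higher in CP70 than in A2780 by 0.30 (adjusted p = 0.0482) and with both drugs than with PXD101 by 0.38 (adjusted p = 0.0358), and 200796_s_at, called nowhere, with differences of -0.18 to 0.94. The first of these calls was lost when any 1 of the 6 arrays was left out (adjusted p 0.0543 to 0.138) and the second was kept in 2 of 6 such fits. Without CP70 replicates 1 and 3 the first was 0.38 (adjusted p = 0.129).

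**Figure D2:**
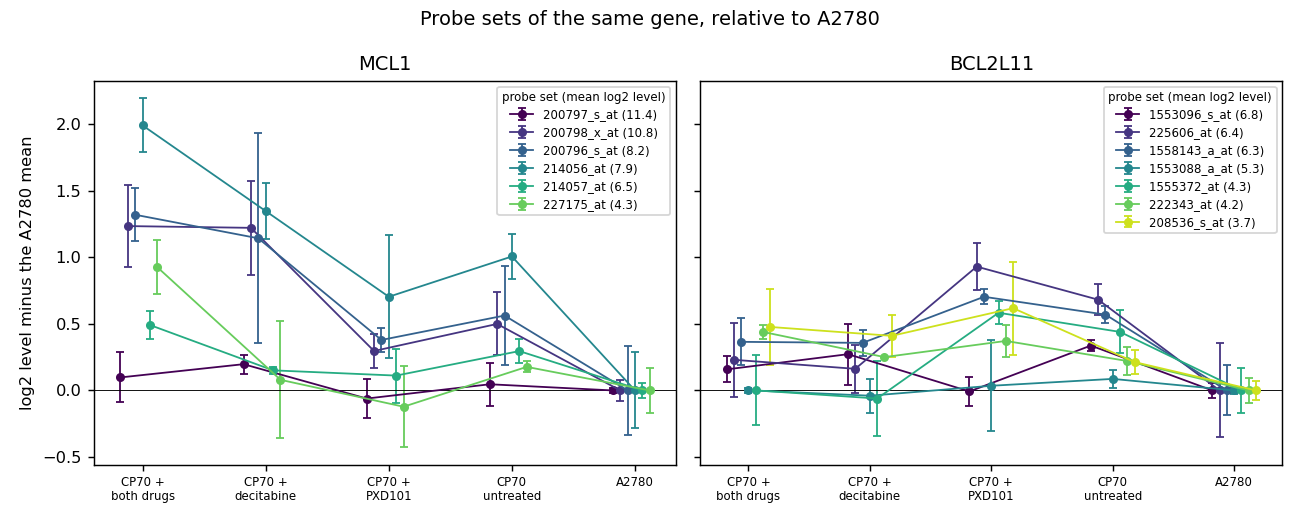
Log2 level relative to the A2780 mean of the same probe set (vertical axis) by group (horizontal axis) for each probe set of MCL1 (left) and BCL2L11 (right), with means of 3 arrays, SD as error bars and thin lines joining the means of a probe set. The MCL1 lead (200797_s_at) stays near 0 in all groups while 200798_x_at and 214056_at are highest in the decitabine arms; the BCL2L11 probe set 225606_at is highest with PXD101 and in untreated CP70.

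BCL2, the founding member, was read by 4 probe sets. The lead, 207004_at, which the platform annotates with the shorter beta transcript, ranged from 5.82 to 6.49 over the 15 arrays and was called in no comparison (smallest adjusted p = 0.0672). The probe set 203685_at, annotated with the alpha transcript, had 5.85, 5.43 and 5.82 in untreated CP70, against 4.89, 5.20 and 5.09 in A2780. The CP70 values lay above those of A2780 by 0.64 ± 0.13 (limma adjusted p = 0.00148), and by 0.77 without replicate 2. Without replicates 1 and 3 the difference was 0.37 with adjusted p = 0.177. The drugs did not move it past the threshold: it averaged 5.56 ± 0.15 with both drugs, 5.57 ± 0.15 with decitabine, 5.49 ± 0.03 with PXD101 and 5.70 ± 0.23 in untreated CP70 (SD, n = 3 each).

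BCL2L1 encodes BCL-XL and, by splicing, the pro-apoptotic BCL-XS, which these probe sets were not used to separate. None of its 4 probe sets was called in any comparison. The lead (212312_at) lay between 7.39 and 8.06 on all arrays and its differences were -0.20 to 0.25, while the smallest adjusted p of the 4 was 0.0876, for 215037_s_at with PXD101 over CP70. BCL2A1, an NF-kB target best known from blood cells, had group means of 2.84 to 3.44, which all lay under the lower quartile of all values, where a level cannot be told from background. It had 3.50, 3.66 and 3.15 with both drugs, against 2.93, 3.07 and 2.80 in untreated CP70, without overlap, a difference of 0.50 ± 0.13 (limma adjusted p = 0.024). That difference was 0.57 without CP70 replicate 2 (adjusted p = 0.00781) and 0.36 without replicates 1 and 3 (adjusted p = 0.382), and over PXD101 alone it was 0.45 (adjusted p = 0.0426). The call over CP70 was kept in 2 of 6 fits without 1 array and that over PXD101 in 1 of 6. Of 7 leukocyte markers measured, TYROBP was also higher with both drugs than in untreated CP70 (by 1.17, adjusted p = 0.00739, and by 1.09, adjusted p = 0.126, without replicates 1 and 3), and the pan-leukocyte marker PTPRC averaged 3.76 with both drugs and 3.95 in untreated CP70. The summed level of the 7 was 32.5 to 33.2 with both drugs and 31.5 to 32.3 in untreated CP70, and its part in the BCL2A1 result was not tested.

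BAK1, the effector, was higher in both arms that received decitabine. It had 7.99, 7.84 and 7.83 with both drugs, 7.97, 7.93 and 8.03 with decitabine, 7.46, 7.43 and 7.37 with PXD101, 7.46, 7.48 and 7.54 in untreated CP70 and 7.20, 7.28 and 7.28 in A2780. The 6 arrays with decitabine lay above the other 9, and PXD101 lay just below untreated CP70. Relative to untreated CP70 the difference was 0.48 ± 0.08 with decitabine, a fold of 1.40 (limma adjusted p = 0.00207), and 0.39 ± 0.08 with both drugs, a fold of 1.31 (adjusted p = 0.00702). Relative to PXD101 alone, decitabine was higher by 0.56 ± 0.08 (adjusted p = 0.000593) and both drugs by 0.46 ± 0.08 (adjusted p = 0.00205). These 4 calls were kept when any 1 array was left out. Without CP70 replicates 1 and 3, decitabine over CP70 was 0.50 (adjusted p = 0.0447) and both drugs over CP70 0.41 (adjusted p = 0.0954). With PXD101 the difference from untreated CP70 was -0.07 (adjusted p = 0.662), with a 95% interval of -0.24 to 0.09. Untreated CP70 exceeded A2780 by 0.24 ± 0.08 (adjusted p = 0.0368), a call lost when any 1 of the 6 arrays was left out (adjusted p 0.0514 to 0.131), and 0.22 (adjusted p = 0.299) without replicates 1 and 3. The BAK1 promoter window shown above held 5 CG, where the lower quartile of all windows was 3 and the median 11. Methylation was not measured, and its part in the BAK1 result was not tested.

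BIK, a BH3-only protein of the endoplasmic reticulum that antagonises the anti-apoptotic members, was higher in CP70 than in A2780 and higher again in both decitabine arms. It had 6.98, 6.90 and 7.13 with both drugs, 7.00, 7.12 and 6.73 with decitabine, 5.82, 6.18 and 5.71 with PXD101, 6.38, 5.94 and 6.53 in untreated CP70 and 5.01, 5.17 and 5.01 in A2780. A2780 lay below every CP70 array and the decitabine arms lay above every other array, while PXD101 and untreated CP70 overlapped. In the order of levels, both drugs and decitabine did not differ beyond their spread (0.05 ± 0.16, adjusted p = 0.997), and the difference between PXD101 and untreated CP70 depended on the CP70 arrays used.

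Untreated CP70 exceeded A2780 in BIK by 1.22 ± 0.16, a fold of 2.33 (limma adjusted p = 2.64e-05), with 1.39 without CP70 replicate 2 and 0.88 without replicates 1 and 3 (adjusted p = 0.00549). Decitabine exceeded untreated CP70 by 0.67 ± 0.16 (adjusted p = 0.0204) and both drugs did by 0.72 ± 0.16 (adjusted p = 0.0109). Without CP70 replicate 2 these were 0.50 and 0.55 (adjusted p = 0.0286 and 0.0152), and without replicates 1 and 3 they were 1.01 and 1.06 (adjusted p = 0.0111 and 0.0070). With 1 of the 6 arrays left out, the call of decitabine was kept in 4 of 6 fits (adjusted p up to 0.0861) and that of both drugs in all 6. Relative to PXD101 alone, both drugs were higher by 1.10 (adjusted p = 0.000457) and decitabine by 1.05 (adjusted p = 0.000861). PXD101 relative to untreated CP70 gave -0.38 ± 0.16 with a 95% interval of -0.71 to -0.05, which did not pass over all probe sets (adjusted p = 0.157), but gave -0.55 (adjusted p = 0.0118) without replicate 2 and -0.04 without replicates 1 and 3. The probe sets of other genes whose arrays followed BIK most closely, by the root mean square difference after centring over 15 arrays, were those of CAPG (0.182), an actin-capping protein, and TRIM2 (0.197), a ubiquitin ligase, where the median over all probe sets was 0.758.

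**Figure D3:**
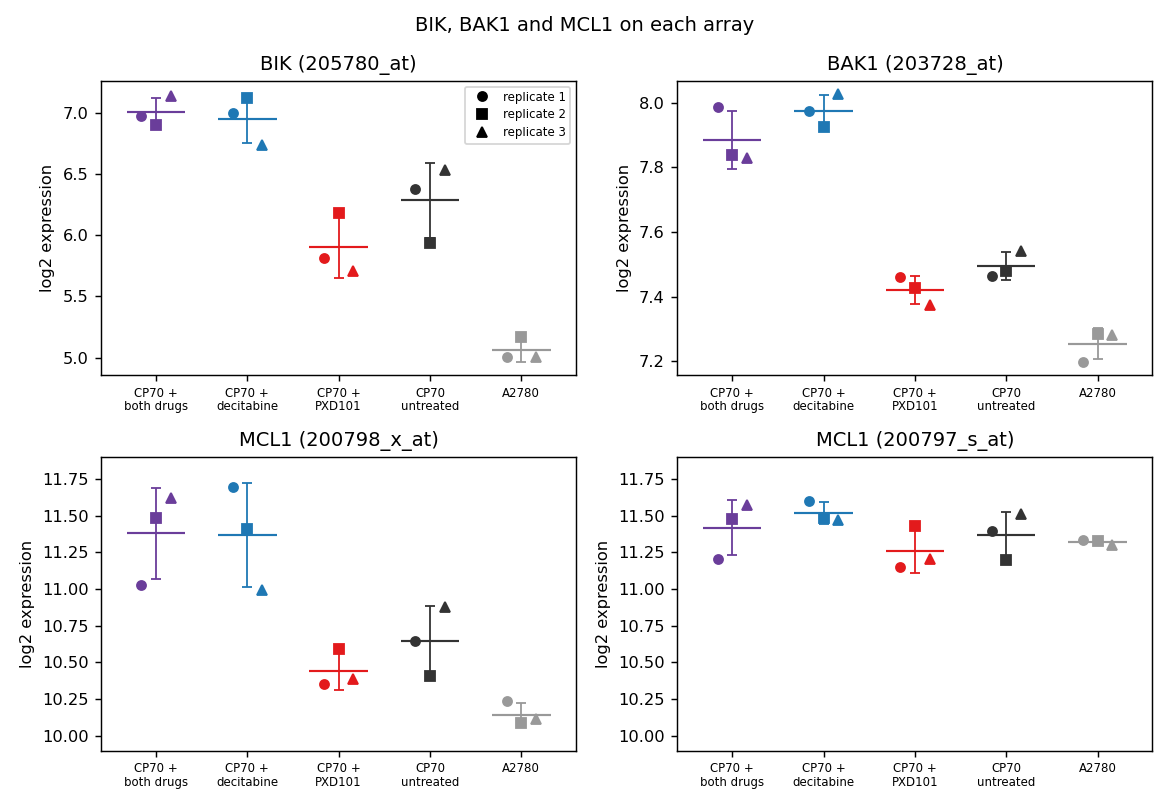
Log2 level on each array (vertical axes, both MCL1 panels on 1 scale, none starting at 0) by group (horizontal axes) for BIK, BAK1 and 2 MCL1 probe sets, with a line at the mean of 3 arrays and SD as error bars. BIK, BAK1 and MCL1 200798_x_at are higher on all 6 arrays with decitabine than on any other, and MCL1 200797_s_at is not.

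HRK, a BH3-only protein best known from neurons deprived of trophic factors, was high on 2 arrays alone. The lead (237187_at) had 4.88, 4.96 and 4.78 with both drugs, 4.94, 5.01 and 4.94 with decitabine, 4.81, 4.88 and 4.85 with PXD101, 7.08, 4.96 and 7.73 in untreated CP70 and 4.40, 4.73 and 4.53 in A2780. Untreated CP70 replicates 1 and 3 stood far above the other 13 arrays, and replicate 2 lay among the treated arrays. The probe set 206864_s_at repeated this with 7.59, 4.66 and 7.48 in untreated CP70 against 4.04 to 4.19 in A2780. In 4 of the 5 HRK probe sets, replicates 1 and 3 exceeded replicate 2 by 1.66 to 2.88, and in 206863_x_at the same difference was -0.19. The SD of the lead was 1.45 in untreated CP70 and 0.04 to 0.17 in the other groups. The limma fit used 1 spread for all groups.

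As group means, HRK was higher in untreated CP70 than in A2780 by 2.03 ± 0.44 (limma adjusted p = 0.00302). It was lower in all treated arms than in untreated CP70, with differences of -1.62 ± 0.44 with decitabine (adjusted p = 0.0453), -1.74 ± 0.44 with PXD101 (adjusted p = 0.0379) and -1.71 ± 0.44 with both drugs (adjusted p = 0.0295). Without CP70 replicate 2 the 4 differences were 2.85, -2.44, -2.56 and -2.53, all called. Without replicates 1 and 3 they were 0.40 (adjusted p = 0.077), 0.01 (adjusted p = 0.992), -0.11 (adjusted p = 1.00) and -0.08 (adjusted p = 0.900). The size and the calls of these differences thus rest on CP70 replicates 1 and 3, and the direction turned for decitabine. Each of the 3 calls with a drug was kept in 1 of 6 fits without 1 array, that without CP70 replicate 2. None of the comparisons among treated arms was called for HRK, and their differences in the lead were -0.09 to 0.12. The x probe set 206863_x_at ranged from 4.78 to 5.44 and was called nowhere. The probe sets most like HRK over the 15 arrays were those of MKX (0.266), a homeobox gene, and COLEC12 (0.279), a scavenger receptor, where the median over all was 0.918.

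**Figure D4:**
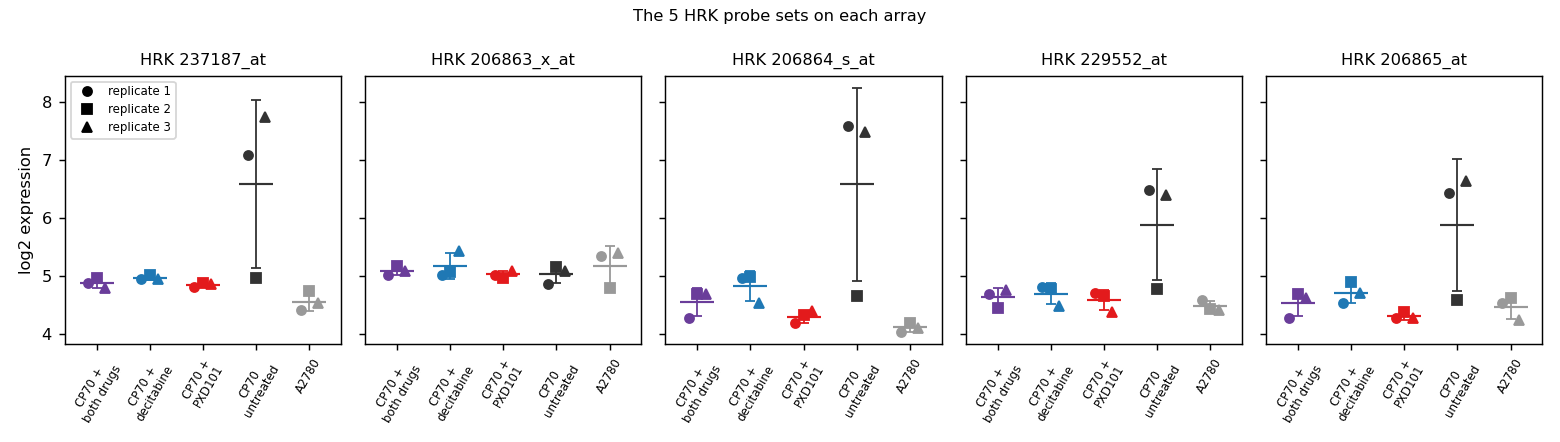
Log2 level of the 5 HRK probe sets (panels) on each array (vertical axes, not starting at 0) by group (horizontal axes), marker shape giving the replicate. Untreated CP70 replicates 1 and 3 stand above the other 13 arrays in 4 panels, and the panel of 206863_x_at shows no such gap.

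BID links death receptors to mitochondria once caspase-8 has cleaved it. Its lead (211725_s_at) had 8.51, 8.45 and 8.14 with both drugs, 8.20, 8.27 and 8.55 with decitabine, 8.01, 7.77 and 7.90 with PXD101, 8.01, 8.07 and 7.94 in untreated CP70 and 8.49, 8.40 and 8.39 in A2780. Untreated CP70 lay below all A2780 arrays and below all arrays with decitabine. The difference from A2780 was -0.42 ± 0.12 (limma adjusted p = 0.0133), with -0.45 (adjusted p = 0.0135) without CP70 replicate 2 and -0.36 (adjusted p = 0.227) without replicates 1 and 3. The probe set 227143_s_at gave -0.39 ± 0.09 (adjusted p = 0.00612), with -0.44 (adjusted p = 0.0034) and -0.29 (adjusted p = 0.221) under the same omissions, and 204493_at gave -0.23 ± 0.15, which did not pass (adjusted p = 0.315). Relative to untreated CP70 the lead was higher by 0.36 ± 0.12 with both drugs (adjusted p = 0.0758) and by 0.33 ± 0.12 with decitabine (adjusted p = 0.117), neither called, while 227143_s_at passed with decitabine at 0.37 ± 0.09 (adjusted p = 0.033). That call was kept without replicate 2 (adjusted p = 0.0104) and lost without replicates 1 and 3 (adjusted p = 0.412), and it was kept in 2 of 6 fits without 1 array. For the lead, both drugs gave 0.39 without replicate 2, just under the threshold, and 0.30 without replicates 1 and 3 (adjusted p = 0.486). Relative to PXD101 alone, where no untreated array enters the difference, the lead was higher by 0.47 with both drugs (adjusted p = 0.0213) and by 0.44 with decitabine (adjusted p = 0.0344). Each of these calls was kept in 2 of 6 fits without 1 array, with adjusted p up to 0.109 and 0.133.

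BCL2L11 encodes BIM, a broad activator that binds all the anti-apoptotic members, and its 7 probe sets did not move as one. The lead (1553096_s_at) had 6.94, 6.77 and 6.77 with both drugs, 7.10, 7.03 and 6.68 with decitabine, 6.75, 6.54 and 6.69 with PXD101, 7.00, 6.97 and 7.05 in untreated CP70 and 6.63, 6.64 and 6.73 in A2780. Untreated CP70 lay above every A2780 and PXD101 array. It exceeded A2780 by 0.34 ± 0.11 (limma adjusted p = 0.0337), with 0.36 (adjusted p = 0.0389) without replicate 2 and 0.30 (adjusted p = 0.316) without replicates 1 and 3. Leaving out any 1 of the other 5 arrays also ended this call (adjusted p up to 0.111). With PXD101 the lead was -0.34 ± 0.11 from untreated CP70, short of the threshold (adjusted p = 0.0708), and -0.36 (adjusted p = 0.0481) without replicate 2 and -0.31 (adjusted p = 0.998) without replicates 1 and 3.

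Another 3 BCL2L11 probe sets were also higher in untreated CP70 than in A2780: 225606_at by 0.68 (adjusted p = 0.00823), 1558143_a_at by 0.57 (adjusted p = 0.00125) and 1555372_at by 0.44 (adjusted p = 0.0495). All 3 kept their calls without CP70 replicate 2 (0.64, 0.57 and 0.51). Of these, only 1558143_a_at kept its call without replicates 1 and 3 (0.56, adjusted p = 0.0353), where 225606_at gave 0.76 (adjusted p = 0.0652) and 1555372_at 0.31 (adjusted p = 0.481). The call of 1555372_at was kept in 2 of 6 fits without 1 array. The probe set 225606_at had 6.32, 6.39 and 5.88 with both drugs, 5.94, 6.14 and 6.30 with decitabine, 7.07, 6.72 and 6.90 with PXD101, 6.51, 6.73 and 6.69 in untreated CP70 and 5.60, 5.99 and 6.30 in A2780. PXD101 and untreated CP70 formed the upper group here, and the decitabine arms overlapped with A2780. Relative to PXD101 alone it was lower, with differences of -0.70 ± 0.17 for both drugs (limma adjusted p = 0.022) and -0.77 ± 0.17 for decitabine (adjusted p = 0.0155). The probe set 1555372_at moved the same way, with differences of -0.58 (adjusted p = 0.0314) and -0.64 (adjusted p = 0.0217). With 1 array left out, 225606_at kept these calls in 3 and 2 of 6 fits (adjusted p up to 0.105 and 0.0686) and 1555372_at in 1 of 6 each (adjusted p up to 0.177 and 0.0915). The lead did not follow, at 0.17 (adjusted p = 0.435) and 0.28 (adjusted p = 0.158). The other 3 probe sets were called in no comparison.

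BMF, which in resting cells is held at the actin-myosin skeleton, ranged from 4.77 to 5.45 and was not called. Its largest difference from untreated CP70 was 0.32 ± 0.13 with PXD101 (limma adjusted p = 0.154).

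Whether the combination departed from the sum of the single drugs was tested as a non-additive response. This is the difference of both drugs over CP70 from the sum of the differences with each drug. PXD101 was given for 48 h alone and for 24 h in the combination. A departure from the sum, or its absence, thus cannot be told apart from that difference in exposure. None of the 33 probe sets was called with limma (0.0146% of all probe sets were), and 8 had an unadjusted p under 0.05. For MCL1 227175_at it was 1.14 ± 0.27 (adjusted p = 0.189), against 0.01 for the MCL1 lead. For the HRK lead it was 1.65 ± 0.63 (adjusted p = 0.252). Without CP70 replicate 2, MCL1 227175_at (1.16, adjusted p = 0.0143) and 4 HRK probe sets (1.79 to 2.97) passed. None passed without CP70 replicates 1 and 3, with 1.12 (adjusted p = 0.684) for MCL1 227175_at and 0.02 (adjusted p = 0.997) for the HRK lead. With the 3 treated arms of HRK at about 1 level, this quantity is close in size to the difference between that level and untreated CP70. For BAK1 it was -0.02 ± 0.11 and for BIK 0.43 ± 0.22, neither called (adjusted p = 0.964 and 0.364), and BIK gave 0.61 without replicate 2 (adjusted p = 0.0525) and 0.09 without replicates 1 and 3 (adjusted p = 0.990).

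The other genes of the pathway were counted by their lead probe sets, for which 29.9% of all 19775 genes were called between the lines. The same share was 7.04% for decitabine, 7.91% for PXD101 and 9.11% for both drugs over untreated CP70, and over PXD101 it was 9.02% for both drugs and 7.37% for decitabine. These shares belong to the fit with all arrays. Counts without some CP70 arrays, here and in the paragraphs below, have no such share beside them. They are thus not a result about the genes listed. Of 14 other BCL2 family genes measured, 2 were higher and 3 lower in untreated CP70 than in A2780. PMAIP1 (NOXA), the BH3-only partner of MCL1, had 10.42, 8.03 and 10.38 in untreated CP70, against 5.35, 5.17 and 5.38 in A2780, a difference of 4.31 ± 0.58 (limma adjusted p = 4.37e-05). All 3 CP70 arrays exceeded A2780, with replicate 2 lowest as for HRK. The difference was 5.10 without that array and 2.73 without replicates 1 and 3, called in both. BAX, the effector that acts beside BAK1, had 7.93, 8.18 and 8.16 in untreated CP70, against 9.58, 9.53 and 9.80 in A2780, a difference of -1.55 ± 0.13 (adjusted p = 2.19e-07), opposite in sign to the small difference of BAK1, and it was -1.59 and -1.46 under the same omissions, called in both. BNIP3 (-0.50) and BCL2L12 (-0.83) were lower, and were -0.60 and -1.19 without replicate 2, called, and -0.32 and -0.10 without replicates 1 and 3, not called. Without CP70 replicates 1 and 3, 1 was higher and 1 lower, and without replicate 2, 3 were higher and 5 lower.

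With decitabine and with both drugs, none of these 14 was called over untreated CP70 by limma with all arrays (5 and 4 had an unadjusted p under 0.05), but 3 and 5 were without CP70 replicate 2. With PXD101, PMAIP1 was lower (difference -2.21, adjusted p = 0.0408) and BCL2L12 higher (difference 0.83, adjusted p = 0.0464), and neither direction had a call without replicates 1 and 3. Relative to PXD101, BNIP3 was lower with both drugs (-0.63, adjusted p = 0.00611) and with decitabine (-0.67, adjusted p = 0.00445).

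Downstream of the mitochondrion, 2 of 14 genes were higher in untreated CP70 than in A2780, CASP9 (0.61, limma adjusted p = 0.000752), the initiator caspase, and XIAP (0.38, adjusted p = 0.0389), a caspase inhibitor. Of 3 lower, AIFM1 (-0.47) and APAF1 (-0.41), the scaffold that activates caspase-9, had the smallest p. All 4 kept their calls without CP70 replicate 2, and only CASP9 did without replicates 1 and 3 (0.58, adjusted p = 0.0313). After PXD101, CYCS (cytochrome c, -0.42) and DIABLO (-0.35) were lower and AIFM1 (0.42) higher than in untreated CP70 (adjusted p 0.0274 to 0.0491), all 3 kept without replicate 2, and no call was left without replicates 1 and 3. With decitabine and with both drugs no gene of this list was called over untreated CP70 with all arrays by limma (3 and 4 had an unadjusted p under 0.05), and 5 and 6 were higher without replicate 2. BIRC2, a ubiquitin ligase of the inhibitor of apoptosis family, was higher than with PXD101 alone by 0.85 with both drugs (adjusted p = 0.00172) and by 0.58 with decitabine (adjusted p = 0.0239).

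Of 22 genes known to regulate members of the family, 10 were higher and 2 lower in untreated CP70 than in A2780, and 5 and 1 without CP70 replicates 1 and 3. The largest was JUN, a factor reported to drive BIM and HRK in neurons, with 9.81, 8.85 and 9.92 in untreated CP70, against 5.49, 5.77 and 5.57 in A2780, a difference of 3.92 ± 0.34 (limma adjusted p = 3.85e-07). MAPK8, the kinase JNK1, was higher by 1.60 (adjusted p = 5.80e-07) and MITF by 1.56 (adjusted p = 3.88e-05). CASP8, which cleaves BID, was higher by 0.80 (adjusted p = 0.000149). These 4 kept their calls under both omissions, with 3.24 for JUN and 0.58 for CASP8 without replicates 1 and 3. BTRC, a ubiquitin ligase subunit, was lower with decitabine (-0.58, adjusted p = 0.00301) and with both drugs (-0.57, adjusted p = 0.00258) than in untreated CP70, called without replicate 2 as well, and neither was called without CP70 replicates 1 and 3. NFKB1, an NF-kB subunit, was higher with both drugs than in untreated CP70 (0.48, adjusted p = 0.0255), and MITF (-0.96, adjusted p = 0.0267) and FOXO1 (-0.68, adjusted p = 0.0489) were lower with PXD101. These 3 calls were kept without replicate 2 and lost without replicates 1 and 3. Relative to PXD101 alone, JUN was higher by 1.86 with both drugs (adjusted p = 0.00321) and by 1.69 with decitabine (adjusted p = 0.00761). In the same comparisons MITF (1.08 and 1.02) and STAT3 (0.62 and 0.67) were higher and BTRC (-0.42 and -0.43) lower (adjusted p 0.00476 to 0.0274).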

How the data were processed

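RNA of 15 samples in 5 groups was hybridised to Affymetrix arrays after amplification with a NuGEN WT-Ovation Pico system, per the labels' protocols. The authors deposited a log2 value for each probe set and array. Per the submitters' processing notes, R 2.10.1 and affy were used. How the values were normalized is not given in the sources used here, and their range (2.39 to 14.52) shows the log2 scale. Arrays give no counts, and 3 arrays per group limit the precision.

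Of 54675 probe sets, 62 controls were left out. Of the rest, 41091 carried 1 symbol, 1801 several and 11721 none. Symbols came from the platform annotation, updated by Entrez ID (41037 matched). Group means were fitted to all 15 arrays with limma 3.58.1 in R 4.3.3, and p-values were adjusted by Benjamini-Hochberg over all 54613. Differences are log2 with SE. Every member was named through its lead probe set, and another probe set where it was called and the lead was not, or lay more than 1 log2 from it. In each comparison, up to 4 called genes with the smallest p were taken from each other list. The members, lists and rules were chosen with earlier results of these data known. The fit and the rank product were tested on simulated data.

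BBC3, BCL2L2-PABPN1, BIRC3 and some other listed genes are not reported here. The alternatives were fits restricted to the groups in a comparison, a replicate number block, probe sets above the median level, 1 probe set per gene, array weights, repeated quantile normalization, median centring, each array left out in turn, CP70 replicates 1 and 3 left out, and the rank product that the design text names (9 differences, 100 permutations, under 5% false positives; Python 3.11.15, numpy 2.4.6).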

Additional observations from a re-analysis of the deposited data

How the results depend on the processing

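Counts of called probe sets among the 33 are given, without the share of all probe sets called in the same fit. They show how the calls depend on the fit and are not a result about the family. Between CP70 and A2780 (15), the fit of only the arrays compared called 9, 1 probe set per gene 5, the fit without CP70 replicates 1 and 3 called 3, and the rank product 2, both of HRK. For decitabine over CP70 (6), the counts were 0 with only the arrays compared, 3 with 1 probe set per gene, 11 with array weights and 2 without CP70 replicates 1 and 3. For PXD101 over CP70 (4), they were 0 with only the arrays compared, 2 above the median level, 1 with 1 probe set per gene, 8 with array weights and 0 without CP70 replicates 1 and 3. For both drugs over CP70 (10), they were 2 with only the arrays compared, 6 above the median level, 4 with 1 probe set per gene, 18 with array weights, 1 without CP70 replicates 1 and 3 and 5 by rank product. Both drugs over PXD101 (10) gave 4 with 1 probe set per gene. Decitabine over PXD101 (6) gave 3 with 1 probe set per gene and 10 with array weights, and the non-additive response (0) gave 7 with array weights. One probe set per gene leaves 10 members to be called. Fewer arrays leave fewer degrees of freedom, and the spread is then taken from fewer groups. Between the lines, the SE of the HRK lead was 0.44 with all arrays and 0.63 with only the arrays compared. For MCL1 200798_x_at it was 0.18 and 0.13. The cause of the changed counts was not tested. Leaving out each array in turn gave 9 to 15 calls between the lines, 2 to 9 for decitabine, 0 to 6 for PXD101 and 2 to 12 for both drugs over CP70, 5 to 8 for both drugs and 3 to 6 for decitabine over PXD101, 0 to 0 for both drugs over decitabine and 0 to 5 for the non-additive response. For PXD101 over CP70 each of 5 arrays, left out alone, ended every call, and without CP70 replicate 2 there were 6. The direction turned in 1 of 3671 single values: HRK 237187_at in decitabine over CP70 was 0.0094 without CP70 replicates 1 and 3. Of the others, 3385 kept direction and side of the threshold, 217 lost and 68 gained the call. The replicate numbers did not pair the samples (correlations of deviations from -0.323 to 0.378, none of 10 group pairs with every value over 0.1), and with the replicate block decitabine over CP70 gave 3 calls and PXD101 over CP70 2. Quantile normalization and median centring moved no count by more than 1.5 times.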

Other observations

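The deposited table repeats values: 18.7% of all probe sets (10191) and 5 of the 33 BCL2 family probe sets had a value, equal to 4 decimals, on 3 or more arrays. BCL2L11 222343_at had 4.20 on 5 arrays, including all 3 with decitabine, so that the SD of that group was 0.00. MCL1 214056_at had the same value, 8.00, on untreated CP70 replicates 2 and 3 and on decitabine replicate 3. The part of repeated values in the calls was not tested.

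Within untreated CP70, the stress factors DDIT3 (CHOP) and ATF4, which act upstream of BIM and NOXA, were lowest on replicate 2, as HRK was. That array stood apart over all probe sets. DDIT3 had 10.88, 10.43 and 10.22 with decitabine, 9.58, 10.43 and 11.12 with both drugs and 7.76, 10.02 and 9.44 with PXD101. ATF4 had 12.77, 12.64 and 12.21, then 11.97, 12.49 and 12.73, then 11.24, 12.33 and 11.80, in the same order. The HRK lead was 4.94 to 5.01, 4.78 to 4.96 and 4.81 to 4.88 on those arrays. A link of these genes to HRK was not tested. DDIT3 had 10.69, 9.17 and 10.74 in untreated CP70, against 7.36, 7.55 and 7.60 in A2780. ATF4 had 13.16, 12.04 and 13.10 in untreated CP70, against 11.83, 11.84 and 11.81 in A2780, and FOXO3 had 10.67, 9.73 and 10.59, against 9.02, 8.77 and 9.04. These genes were chosen after their values were seen.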
